A study of Homo sapiens with 33 samples.

Results

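The nuclear-encoded respiratory chain genes are the genes of the nuclear genome whose products are built into complexes I to IV of the mitochondrial electron transport chain. They were chosen by gene symbol in a table of expression levels of K562 cells: symbols made of NDUFA, NDUFB, NDUFC, NDUFS or NDUFV and a number, SDHA to SDHD, UQCR symbols, and COX symbols of the subunit families 4 to 8. The rule found 63 genes among the 56456 gene symbols of the table, of which 37 were in complex I, 4 in complex II, 8 in complex III and 14 in complex IV. It used names and no measured value. It leaves out subunits with other kinds of symbols, of which NDUFAB1, CYC1, COX4I1, COX4I2, NDUFA4L2, COX7A2L and UQCRHL are given beside the members.

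The study characterised LEVER, a non-coding RNA upstream of the β-globin genes, and its interaction with EZH2, the catalytic subunit of the Polycomb complex PRC2. The expression levels come from the RNA of wild type K562 cells that served as the input of the EZH2 RNA immunoprecipitation (RIP-seq). K562 is an established human erythroleukemia line. The cells carried no edit and received no treatment, and only 1 library was made, which leaves no replicate error to state. The labels name the molecule as total RNA, whereas the methods describe the RIP material as lysate of formaldehyde-fixed, sonicated nuclei, and how much cytoplasmic RNA the input held is not given. Ribosomal RNA was removed, and the library kit marks the strand.

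The respiratory chain passes electrons from NADH through complex I (NADH dehydrogenase) and from succinate through complex II (succinate dehydrogenase) to ubiquinone, and from there through complex III (cytochrome bc1) and cytochrome c to complex IV (cytochrome c oxidase), which reduces oxygen. Complexes I, III and IV are built from subunits of both genomes: the mitochondrial DNA encodes hydrophobic catalytic subunits, and nuclear genes encode the rest, while complex II is wholly nuclear-encoded. Several small subunits of complex IV exist as a widely expressed isoform and an isoform restricted to heart and skeletal muscle, testis or lung. NRF1, the ETS factor GABP and YY1 are known regulators of many of the nuclear genes.

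The promoters of the isoform pairs COX6A, COX7B and COX8 are shown because the genes within a pair differed widely in level. The COX6B pair is not printed, because the COX6B2 stretch is annotated as untranslated or coding sequence, and no window was found for COX7A1. Each is given 5′ to 3′ on the strand of the gene from the RefSeq windows of GRCh38.p14, without bases annotated as untranslated or coding in GENCODE 44. Positions count back from the start, with −1 as the last base before it. Capitals mark 4 sets of letters that were searched on both strands: GCGCATGC (NRF1), CCGGAAG (ETS factors), AAGATGGC (YY1) and CCAAT (NF-Y). None of the 4 contains another, but GCGCATGC overlaps its own reverse complement when the letters run on. The COX6A1 stretch is chr12:120437863-120438112 and the COX6A2 stretch, read on the minus strand, is chr16:31428361-31428610.
COX6A1: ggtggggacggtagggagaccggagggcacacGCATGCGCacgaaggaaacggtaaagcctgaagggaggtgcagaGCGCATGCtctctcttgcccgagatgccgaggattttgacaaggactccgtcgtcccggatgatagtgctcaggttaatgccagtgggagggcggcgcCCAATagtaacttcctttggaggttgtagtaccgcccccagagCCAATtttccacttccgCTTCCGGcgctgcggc
COX6A2: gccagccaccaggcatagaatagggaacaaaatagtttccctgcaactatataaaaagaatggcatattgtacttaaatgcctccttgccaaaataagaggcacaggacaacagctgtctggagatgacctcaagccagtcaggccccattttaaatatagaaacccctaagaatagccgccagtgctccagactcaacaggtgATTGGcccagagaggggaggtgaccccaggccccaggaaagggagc
The COX7B stretch is chrX:77899272-77899439, and the COX7B2 stretch, on the minus strand, is chr4:46909246-46909495.
COX7B: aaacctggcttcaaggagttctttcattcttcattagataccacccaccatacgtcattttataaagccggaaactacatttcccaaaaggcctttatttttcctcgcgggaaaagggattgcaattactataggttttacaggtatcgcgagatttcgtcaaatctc
COX7B2: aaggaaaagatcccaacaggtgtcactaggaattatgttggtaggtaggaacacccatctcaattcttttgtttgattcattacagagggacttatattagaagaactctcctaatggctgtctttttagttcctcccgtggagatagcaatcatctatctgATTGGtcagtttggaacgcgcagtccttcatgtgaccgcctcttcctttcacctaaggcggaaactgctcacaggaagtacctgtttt
The COX8A stretch is chr11:63974370-63974619 and the COX8C stretch is chr14:93346932-93347181, both on the plus strand.
COX8A: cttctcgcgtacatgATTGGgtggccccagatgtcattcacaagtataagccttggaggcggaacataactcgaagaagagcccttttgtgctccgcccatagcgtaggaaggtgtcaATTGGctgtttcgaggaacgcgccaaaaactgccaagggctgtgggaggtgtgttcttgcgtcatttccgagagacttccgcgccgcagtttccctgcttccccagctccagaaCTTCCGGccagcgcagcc
COX8C: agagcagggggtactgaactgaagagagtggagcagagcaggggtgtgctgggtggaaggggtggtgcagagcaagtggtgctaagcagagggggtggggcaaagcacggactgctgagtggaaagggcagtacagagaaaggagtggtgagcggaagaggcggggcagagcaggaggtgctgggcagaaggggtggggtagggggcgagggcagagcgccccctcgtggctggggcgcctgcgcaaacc
The last 2 stretches belong to UQCRH, the member with the highest level (chr1:46303617-46303697, plus strand), and to SDHB, the highest of complex II (chr1:17054033-17054282, minus strand).
UQCRH: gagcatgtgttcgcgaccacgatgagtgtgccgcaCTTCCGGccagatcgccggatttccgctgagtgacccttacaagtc
SDHB: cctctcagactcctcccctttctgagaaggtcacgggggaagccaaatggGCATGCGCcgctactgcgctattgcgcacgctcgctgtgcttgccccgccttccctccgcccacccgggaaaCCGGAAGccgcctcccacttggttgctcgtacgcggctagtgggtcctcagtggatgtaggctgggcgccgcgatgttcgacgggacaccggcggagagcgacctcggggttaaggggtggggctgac
The widely expressed COX6A1 and COX8A carried the ETS letters within 20 bases of the start, at positions −16 and −18, and COX6A1 also carried the NRF1 letters at −174 and −218. Their restricted counterparts COX6A2 and COX8C carried neither, and COX6A2 held only the NF-Y letters, at −46. The COX6B pair had the same contrast, with the ETS letters at −12 in COX6B1 and only the NF-Y letters, at −51 and −76, in COX6B2. COX7B held none of the letters in the stretch shown, so the contrast was seen in 3 of the 4 pairs with a window for both genes. Only 16.7% of protein-coding genes with a window held the ETS letters, so most genes lack them, as the restricted forms did. The NF-Y letters were not particular to restricted forms, since the windows of COX6A1, COX6B1, COX7B and COX8A held them too.

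The level of each gene is given in FPKM, the fragments of a gene scaled to its transcript length and to the mapped fragments of the library, so that it can be compared between genes of different length. The 2 values after each level are the lower and upper confidence bounds that the authors deposited with it, which cover the estimate in this library and not the spread between cultures. The confidence level of the bounds is not given in the sources used here. The table holds no counts, so the depth behind each level is unknown. Symbols with more than 1 row were summed, which touched only SDHD among the members, with rows of 15.1 and 0.107 FPKM.

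Nearly all members were expressed in K562 cells. An FPKM of at least 1 was reached by 58 of the 63, against 21.8% of all 58293 gene rows and 49.2% of the 19757 rows of protein-coding genes. An FPKM of at least 10 was reached by 50, against 7.37% of all rows and 19.6% of the protein-coding ones. The median member stood at 24.1 FPKM (medians of the bounds 20.04 and 28.1), a level above that of 92.2% of the protein-coding rows. The 5 members under 1 were exactly the 5 tissue-restricted isoforms COX6A2, COX6B2, COX7A1, COX7B2 and COX8C. None of the members fell between COX6B2 at 0.547 and NDUFA3 at 4.95 FPKM, so the threshold of 1 lay in a gap. The same 58 members had a lower bound of at least 1.

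Levels among the 58 widely expressed members spanned a 45.7-fold range across the complexes. Subunits are assembled in fixed proportions within a complex, where the ranges were 30.2-fold (I), 6.61-fold (II), 38.2-fold (III) and 6.93-fold (IV). Of the 58, UQCRH was the highest at 226 FPKM, followed by NDUFS5 at 149 and UQCRB at 107. These 3 genes together carried 23.7% of the summed FPKM. Each of the 3 was separated from the next by bounds that did not overlap. The remaining neighbours in the order of levels could not be told apart, since only 3 of the 57 neighbouring pairs had separate bounds. The middle of the order was dense, with 27 members between 20 and 45 FPKM. The distance from a bound to the estimate was 14.0% of the level at the median member, 6.12% for UQCRH and 59.7% for NDUFA3.

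Complex I had a median level of 21.8 FPKM (medians of the bounds 18.8 and 24.2) over its 37 members, and all 37 were above 1. Its 7 core subunits, which form the conserved catalytic part of the complex, had a median of 24.1 FPKM, and its 30 accessory subunits a median of 21.0. This division is the textbook one and was applied after the values were known. The core subunits differed among themselves by 6.22-fold.

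NDUFV1, the core subunit that binds NADH and the flavin, was at 62.7 FPKM (57.4 to 67.9). Its neighbour in the same module, NDUFV2, was at 63.1 (57.8 to 68.5), so the bounds of these subunits overlapped almost completely. NDUFS1, the largest subunit and the carrier of several iron-sulfur clusters, was at 21.8 (19.96 to 23.7), below both. NDUFS7, an iron-sulfur protein at the quinone site, was lower, at 11.2 FPKM (9.05 to 13.3). NDUFS3 was at 24.1 (20.04 to 28.1) and NDUFS8, another iron-sulfur protein, at 10.2 (7.81 to 12.5). The bounds of NDUFS7 and NDUFS8 overlapped and lay under those of NDUFS3.

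The accessory subunits set both ends of complex I. NDUFS5, a small protein of the intermembrane space side (chr1:39026318-39034636), was at 149 FPKM (139 to 160). NDUFA5, which sits in the matrix arm, was at 74.9 (69.9 to 79.9) and NDUFB9, of the membrane arm, at 67.0 (60.9 to 73.0). The bounds of NDUFS5 lay above those of every other complex I member, while those of NDUFA5 and NDUFB9 overlapped.

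At the low end, NDUFA3 was at 4.95 FPKM (2.00 to 7.91), NDUFB4 at 5.38 (3.37 to 7.40) and NDUFA2, an accessory subunit of the matrix arm, at 7.39 (5.63 to 9.16). The bounds of these 3 overlapped each other. Between these ends lay 24 accessory members. Of these, 15 were between 20.4 and 43.1 FPKM: NDUFB10, NDUFB2, NDUFB1, NDUFA10, NDUFA12, NDUFA6, NDUFB5, NDUFC2, NDUFS4, NDUFA13, NDUFA1, NDUFS6, NDUFB8, NDUFV3 and NDUFA8, in falling order. The other 9 were between 7.76 and 16.6 FPKM: NDUFB7, NDUFB3, NDUFA4, NDUFC1, NDUFA9, NDUFA7, NDUFB11, NDUFA11 and NDUFB6. NDUFS4 and NDUFS6 belong with the NADH-binding module, NDUFA13 is also known as GRIM-19, and NDUFA9 is a stabilising subunit beside the quinone site. By name, the medians were 20.4 FPKM for the 13 NDUFA genes, 20.8 for the 11 NDUFB genes, 19.8 for the 2 NDUFC genes, 22.96 for the 8 NDUFS genes and 62.7 for the 3 NDUFV genes. The NDUFV median was set by NDUFV1 and NDUFV2, since NDUFV3 was at 20.8.

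Complex II, which also works in the citric acid cycle, had the narrowest range of the 4 complexes, 6.61-fold over its 4 members. SDHB, the iron-sulfur subunit (chr1:17018722-17054170), was at 42.5 FPKM (38.04 to 47.04). SDHA, the flavoprotein that oxidises succinate, was at 32.04 (29.3 to 34.8). SDHD and SDHC, which anchor the complex in the membrane and bind ubiquinone, were at 15.2 (13.1 to 17.7) and 6.44 (4.11 to 8.77). All 4 had bounds that did not overlap, and both catalytic subunits were above both anchors.

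Complex III held both the highest of all members and one of the lowest, a 38.2-fold range over 8 genes with a median of 40.0 FPKM (medians of the bounds 35.6 and 44.4). UQCRH, the acidic hinge protein that contacts cytochrome c1 (chr1:46303631-46316776), was at 226 FPKM (212 to 240.1). UQCRB was at 107 (99.9 to 114) and UQCRQ at 59.8 (52.5 to 67.1), both small subunits near the quinone-binding cytochrome b. The core proteins UQCRC2 and UQCRC1 were at 51.0 (46.3 to 55.7) and 29.0 (25.0 to 33.1). UQCR11 and UQCR10, small subunits without a cofactor, were at 13.7 (11.1 to 16.2) and 13.2 (10.7 to 15.6). UQCRFS1, the Rieske iron-sulfur protein and the only one of the 8 that carries a redox cofactor, was the lowest at 5.93 (5.23 to 6.63), with bounds under those of all others. CYC1, the cytochrome c1 that the symbol rule leaves out, was at 26.3 FPKM (23.5 to 29.0).

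Complex IV had a median of 32.2 FPKM over all 14 members (medians of the bounds 27.8 and 36.6) and of 38.9 over the 9 widely expressed ones. COX7C was the highest at 74.0 (66.5 to 81.6), followed by COX6C at 70.0 (63.0 to 77.0), with overlapping bounds. COX5B was at 40.8 FPKM (36.3 to 45.3), close to COX7A2, COX7B, COX6B1 and COX6A1, which lay between 36.4 and 40.0 and had bounds that all overlapped. COX5A, which forms the matrix face with COX5B, was at 28.0 (24.0 to 32.1). COX8A, the smallest subunit, was at 10.7 (7.97 to 13.4) and lay apart from the other 8. COX4I1, the large nuclear-encoded subunit that the symbol rule leaves out, was at 83.5 (76.6 to 90.4), with bounds that overlapped those of COX7C and COX6C and lay above the rest. The 9 widely expressed genes spanned 6.93-fold, against 30.2-fold in complex I.

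Within the isoform pairs of complex IV, the widely expressed form carried nearly all of the signal. In RNA of bulk cells, fewer cells with a transcript and less RNA per cell cannot be told apart. COX6A1 was at 36.4 FPKM (31.6 to 41.1), while COX6A2, the heart and skeletal muscle form, was listed at 0. COX8A was at 10.7, while COX8C, a testis form, was listed at 0. No fold is given against these genes, since an exact 0 without counts can also be a failed estimate. On the scale of log2(FPKM + 0.1) the differences were 8.51 for COX6A and 6.75 for COX8, values that the added 0.1 sets.

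The other pairs had an estimate above 0 on both sides. COX7A2 was at 40.0 FPKM (33.7 to 46.4) and COX7A1, the heart and skeletal muscle form, at 0.375 (0 to 1.26), a ratio of 107. COX7B was at 38.9 (33.9 to 43.9) and COX7B2, a testis form, at 0.296 (0 to 1.05), a ratio of 132. COX6B1 was at 38.8 (34.2 to 43.4) and COX6B2, also a testis form, at 0.547 (0 to 1.67), a ratio of 70.9. The lower bound of the restricted form was 0 in each of these, so its presence was not detectable in this library. Taking the lower bound of the widely expressed form over the upper bound of the other, the ratios were still 26.7, 32.4 and 20.4. The log2 differences, on the log2(FPKM + 0.1) scale, were 6.402 for COX7A, 6.62 for COX7B and 5.91 for COX6B.

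Pairs outside the symbol rule showed the same order. COX4I1 was at 83.5 FPKM while COX4I2, a form of lung, was listed at 0. NDUFA4, named for complex I but known as a subunit of complex IV, was at 12.0 (9.20 to 14.9), and its paralog NDUFA4L2 was at 0.282 (0 to 1.04), a ratio of 42.6. COX7A2L, which joins complexes III and IV in a supercomplex and is not a tissue form, was at 26.7 (23.4 to 29.9). Of the marker genes of heart and skeletal muscle, 0 of 7 reached an FPKM of 1, and the highest, TNNT2, was at 0.170. Of those of testis germ cells, 0 of 6 did, and 5 were listed at 0. Of the lung and smooth muscle markers, SFTPC was at 0.281 and SFTPB at 0.0174, while MYH11 was at 1.39 (0.546 to 2.23). All 7 erythroleukemia markers were above 1, from TAL1 at 14.3 to the fetal globin HBG2 at 218 FPKM, as the label of the line says.

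**Figure D1:**
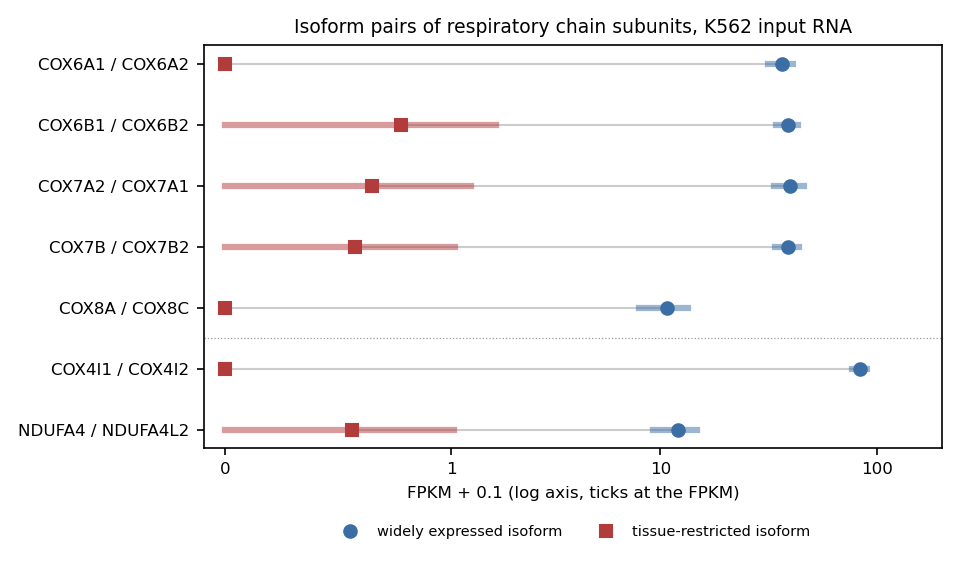
Level of the widely expressed form (blue circles) and its counterpart (red squares) in each pair, on a log axis of FPKM + 0.1, with bars between the authors' bounds. The counterparts are tissue-restricted isoforms, except NDUFA4L2, which is given as a paralog of NDUFA4 and not as a tissue form. The pairs under the dotted line are not chosen by the symbol rule, and in all 7 pairs the blue bar lies wholly to the right of the red one.

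The mitochondrial-DNA-encoded subunits of the same complexes were higher than the nuclear ones. Their 11 genes had a median of 410 FPKM, from 239 for MT-ND1 to 718 for MT-ND4, against 27.5 FPKM for the 58 widely expressed nuclear members, a ratio of 14.9. The lowest of them was above the highest nuclear member, although the bounds of MT-ND1 (231 to 248) and UQCRH (212 to 240.1) overlapped. By complex, the ratio of the medians was 18.2 in complex I, 7.61 in complex III, where MT-CYB at 304 was the only mitochondrial gene, and 12.7 in complex IV, where MT-CO1 was at 494. Cells are known to hold many copies of the mitochondrial DNA, and RNA per template was not measured here.

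The ATP synthase, which uses the proton gradient that the chain builds, was measured with 16 nuclear genes, all above 1. Their median was 55.4 FPKM (medians of the bounds 50.01 and 60.2), with ATP5B, the catalytic subunit, highest at 138 and ATP5G1, a gene of the membrane ring, lowest at 13.7. CYCS, the cytochrome c that carries electrons from complex III to complex IV, was at 96.2 FPKM (88.9 to 103). Only UQCRH, NDUFS5 and UQCRB stood above it among the members.

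Assembly factors, which build the complexes and are not part of them, were lower. Of the 44 factors 43 were above 1, with a median of 8.68 FPKM and a highest value of 31.0 for TIMMDC1. Their medians were 11.7 for complex I, 4.40 for complex II, 12.3 for complex III and 7.24 for complex IV. The lowest were SCO2 at 0.688 (0.195 to 1.56) and SURF1 at 1.16 (0.488 to 1.83), both factors of complex IV. Of 9 transcriptional regulators 8 were above 1. TFAM, which packages and transcribes mitochondrial DNA, was the highest at 42.3 FPKM (38.6 to 46.0), YY1 was at 18.5, GABPA at 6.52 and NRF1 at 5.37. The coactivator PPARGC1A was at 0.123 (0 to 1.00), while its relatives PPARGC1B and PPRC1 were at 7.35 and 7.08.

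**Figure D2:**
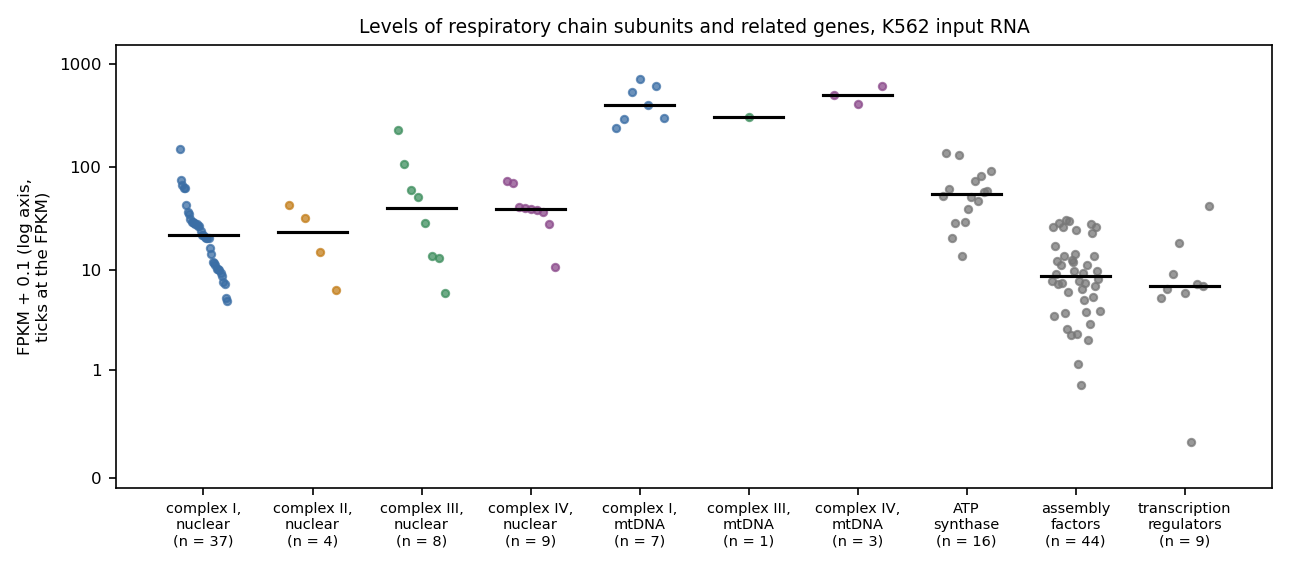
Levels of the widely expressed members by complex, of the mitochondrial-DNA-encoded (mtDNA) subunits, and of related gene lists, on a log axis of FPKM + 0.1. Each point is a gene, its sideways position within a group has no meaning, and black lines are medians, which are 398, 304 and 494 for the mtDNA subunits of complexes I, III and IV, 55.4 for the ATP synthase and 8.68 for the assembly factors.

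Letters for known regulators were searched in the promoter windows, 250 bases before to 50 after each start. Windows were found for 53 of the 63 members and not for the other 10, among them NDUFS5, UQCRB, COX6C and COX7A1. A gene counted as holding the letters when any of its windows did. The NRF1 letters were in 20.4% of the 49 widely expressed members with a window (10 genes), against 4.89% of 15345 protein-coding genes and 3.68% of all 27305 genes of the table. The ETS letters were in 28.6% (14 genes) against 16.7% and 12.2%, and the YY1 letters in 18.4% (9 genes) against 4.74% and 3.52%. The NF-Y letters went the other way, with 30.6% (15 genes) against 42.5% and 39.7%. These shares are descriptions of letters, with no test, and a match is not a bound site.

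The sets of letters differed in the genes and positions that held them. The genes with the NRF1 letters were SDHB, SDHD, COX5B, COX6A1, NDUFA5, NDUFA6, NDUFA8, NDUFB4, NDUFS6 and NDUFS7. None was among the 7 complex III genes with a window, and none of the 12 of complex IV held the YY1 letters. These are few genes beside shares of 20.4% and 18.4% in the widely expressed members, so no difference between complexes is read from them. In each of the 9 genes with the YY1 letters (SDHB, UQCRC1, NDUFS4, NDUFS7, NDUFA3, NDUFA6, NDUFA7, NDUFA9 and NDUFB8) they lay after the start, from position 11 to 26, and always on the strand of the gene. None of the 4 tissue-restricted isoforms with a window held the NRF1, ETS or YY1 letters, and 3 held the NF-Y letters. Their windows held 5 CpG in COX6A2, 8 in COX7B2, 10 in COX8C and 31 in COX6B2, against medians of 23 for the widely expressed members and 25 for protein-coding genes, so COX6B2 lay above both medians and the other 3 below. Levels of genes with and without the letters overlapped. Among the widely expressed members the median was 25.1 FPKM with the NRF1 letters and 24.1 without. It was 20.8 with the YY1 letters and 25.5 without, and 25.5 with the ETS letters and 21.2 without. With the NF-Y letters it was 29.2, and 21.8 without. The 14 members with none of the letters had a median of 30.9, against 21.8 for the other 35. NDUFB4 at 5.38 and NDUFA5 at 74.9 FPKM both held the NRF1 letters.

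**Figure D3:**
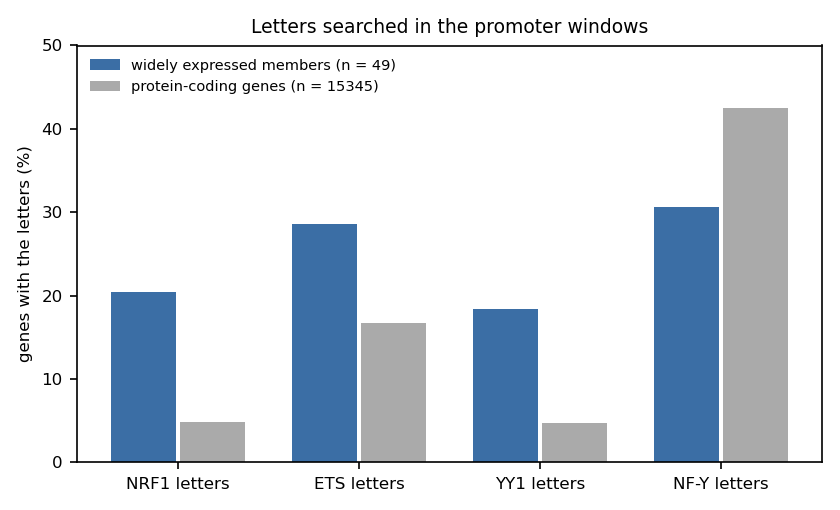
Share of genes whose promoter window holds the letters searched for NRF1, ETS factors, YY1 and NF-Y, in percent, for the 49 widely expressed members with a window (blue) and for 15345 protein-coding genes (grey). The members' bars are higher for the first 3 sets of letters and lower for NF-Y, at 30.6% against 42.5%.

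Most members have short transcripts. The canonical transcripts of the 58 widely expressed members ran from 317 to 11660 bases with a median of 781, and 34 were under 1000 bases. The rank correlation of level and transcript length among these genes was 0.004 (Spearman rho), and the 29 shorter members had a median of 26.9 FPKM against 28.0 for the 29 longer. This is a correlation across genes of 1 library, which share its depth. Only library molecules of 250 to 500 bp had been kept for sequencing.

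Respiratory chain genes are known for many processed pseudogenes, and alignments with low mapping quality had been removed. The table listed 113 pseudogene rows named after 32 of the members, of which 63 rows were listed at 0 and 15 were at 1 or more. Their FPKM summed to 64.5, against 2034 for the members. The highest were COX6CP1 at 13.4 (7.07 to 19.7) and SDHAP1 at 10.6 (8.17 to 13.1). For COX6C the 17 pseudogene rows together came to 37.4% of the gene's own level, for SDHA the 3 rows came to 36.8%, and for NDUFA3 the 5 rows came to 54.7%. The stretches at COX6CP1, COX6CP16 and COX6CP10 overlap the spans of GSPT1 (65.6 FPKM), GSE1 (40.5) and CLASP2 (45.7). The part of reads from these genes in the pseudogene rows was not tested. NDUFB4 had 12 pseudogene rows with a sum of 1.09 FPKM.

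A copy of at least 95% identity over at least 80% of the canonical transcript was found elsewhere in the genome for 5 members: UQCRH, NDUFV2, COX6A1, NDUFB3 and SDHD, the last with 4 copies. The copy of UQCRH was at 97.9% identity in UQCRHL (chr1:15807181-15807696), which was itself at 4.61 FPKM (3.88 to 5.35). The levels of these 5 genes are therefore uncertain, because reads that fit 2 places equally can be lost or shared. Their median was 36.4 FPKM, from 14.5 for NDUFB3 to 226 for UQCRH, against 27.1 for the 53 others. Among these others are genes with near copies of lower coverage. COX7C has one at 95.1% identity over 68.5% of its transcript, and NDUFB4 one at 95.3% over 71.6%. How many of all genes have such copies or pseudogene rows was not computed. The part of the copies in these levels was not tested.

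Other genes with an FPKM of at least 1 overlapped the span of 19 of the 63 members (30.2%). This share was not computed over all genes, so the counts describe these members only. In 7 members the estimate of the overlapping gene was the higher: NDUFS1 with EEF1B2 at 139 FPKM, NDUFS3 with CELF1 at 28.9, NDUFC1 with NAA15 at 33.7, NDUFA7 with RPS28 at 27.9, NDUFB11 with RBM10 at 10.7, NDUFA2 with IK at 48.1 and SDHD with TIMM8B at 19.9. The bounds overlapped for NDUFS3, NDUFB11 and SDHD and were separate for the other 4. All 7 overlapping genes lie on the opposite strand, and whether the authors' estimation used the strand is not given in the sources used here. The 19 members had a median of 15.2 FPKM against 29.2 for the other 39 widely expressed ones. The part of the overlap in these levels was not tested.

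Finally, the members were looked up among listed RNA fragments from EZH2 RIP-seq. Read counts of these fragments were deposited for cytoplasmic, nuclear, nuclear polyA+ and nuclear polyA− RNA of wild type K562 cells, each from a library of its own. Fragments beyond those listed were not analysed here and could lie on or nearer to members, so the shares and distances hold for the listed ones only. Of the 900 listed fragments 0 lay on the span of any member, so there are no fraction counts to give for these genes. A listed fragment lay on 229 of 9715 protein-coding rows with an FPKM of at least 1 (2.36%), and on 11 of the 3161 (0.348%) whose span was as long as the middle range of the members, 5891 to 26183 bp. No listed fragment lay within 50 kb of a member, and the nearest listed one was 102601 bp from NDUFB2. How many other genes have a listed fragment within 50 kb was not computed, so these distances describe the members only.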

How the data were processed

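RNA-seq of the RIP-seq input of wild type K562 cells (1 library) was used for levels, and read counts from 4 fractionated libraries for EZH2-bound fragments. Per the methods, the authors trimmed reads with TrimGalore, aligned them to GRCh38 (annotation GENCODE 26) with STAR, then dropped PCR duplicates and every alignment whose mapping quality was below 20. The authors deposited FPKM per gene with lower and upper bounds, made with cuffdiff, and raw read counts per fragment, made with featureCounts. Both were used as deposited, and neither holds the total of a library. Tool versions are not given in the sources used here.

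Members were selected by symbol, rows of a symbol were summed, and complexes were assigned by name, so NDUFA4 was counted in complex I. Members are named, except where an item is not reported here, and the 3 highest and 3 lowest of each complex, all of complex II and all isoform pairs are given with bounds. The members and lists were chosen with earlier results of these data known, and the split into core and accessory subunits, the search for copies and overlapping genes were added after the values were seen. With 1 library no test was run. Log2 differences used log2(FPKM + 0.1). Protein-coding rows were those with a GENCODE 44 identifier of that type. Copies were sought with minimap2 2.31 by aligning canonical transcripts of GENCODE 44 to GRCh38, leaving out the gene itself. Promoter windows came from RefSeq (GRCh38.p14). Spans were read from the deposited table, with the start counted from 1. Alternatives comprised other thresholds, pseudocounts, members and treatment of pseudogenes, and the bounds in place of the estimates. Python 3.11.15, pandas 2.3.3, numpy 2.4.6, samtools 1.23.1 and matplotlib 3.10.9 were used. The other samples of the study were not analysed here.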

Additional observations from a re-analysis of the deposited data

How the results depend on the processing

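A median was taken as unmoved when it stayed between the medians of the authors' lower and upper bounds, a log2 difference when it stayed within the range that the bounds of both genes give, and a count when it stayed within 1.5 times. The 15 alternatives that put the bounds in place of the estimates meet this by construction and are not counted as support. Of the other 44 alternatives, 34 left the results unmoved and 10 moved them. The sign of a log2 difference could not reverse in any of them. A pseudocount keeps the sign, and no tissue-restricted isoform has a pseudogene row to add. Some of the 34 could not move a result and are no support either. Taking the largest row changes nothing in complexes I, III and IV, where no symbol has more than 1 row. Adding pseudogene FPKM adds 0 to the COX6B and COX8 pairs. The count of members at or above the threshold ran from 50 at an FPKM of 10 to 61 at 0.1. The medians of all members and of complex I were not moved by any of these alternatives. With the pseudogene FPKM added, the complex II median was 29.8 FPKM, and without SDHD, which has near copies, 32.04. The complex III median was 29.0 with CYC1 added and also 29.0 without UQCRH, so with 8 genes it rests on which are counted. The complex IV median was 38.9 without the tissue-restricted isoforms and 27.4 with the subunits that the symbol rule leaves out. Leaving out members with near copies was chosen after seeing the data, as was the 50 kb window around the members, in which 0 members had a listed fragment. The log2 difference of COX6A1 over COX6A2 was 5.22 with a pseudocount of 1 and 11.83 with 0.01, and that of COX8A over COX8C 3.55 and 10.06. Both contain a gene listed at 0, so the pseudocount sets their size and not their sign. No paired analysis was possible because there is 1 library and no test. The precision is limited by the single library and by the unknown depth.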

Other observations

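Several members start close to a neighbour on the other strand. A protein-coding gene on the opposite strand started within 1000 bp upstream of 16 of the 63 members (25.4%), in the annotation of GENCODE 44, and the same held for 1710 of 20033 protein-coding genes (8.54%). The gap between the starts ran from 26 bp (SDHD and TIMM8B, a chaperone of the mitochondrial intermembrane space) to 835 bp, with a median of 79 bp. Partners with a mitochondrial product included MRPL47 beside NDUFB5 (41 bp apart) and MRPL36 beside NDUFS6 (41 bp apart), both proteins of the mitochondrial ribosome.

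The levels within these pairs were unequal. Of the 16 partners 11 had an FPKM of at least 1, with a median of 4.48 FPKM over all partners against 21.5 for the members beside them, and 14 of the 16 members were above their partner. An FPKM of at least 1 was reached by 49.2% of all protein-coding rows. The median member stood above 92.2% of all protein-coding rows. How levels compare within such pairs of other genes was not computed, so the counts describe these pairs only. MRPL47 was at 21.4 FPKM (18.7 to 24.0) beside NDUFB5 at 28.1, with overlapping bounds. LRRC41 was at 11.2 (10.0 to 12.4) beside UQCRH at 226, whose start lies 82 bp away. The exceptions were EEF1B2, a translation elongation factor, at 139 (131 to 147) beside NDUFS1 at 21.8, and TIMM8B at 19.9 (17.1 to 22.7) beside SDHD at 15.2 (13.1 to 17.7), of which only the first pair had separate bounds. Some partners were at or near 0, such as OSCAR, listed at 0, beside NDUFA3 at 4.95 FPKM. The members were spread over 20 chromosomes, with 11 on chromosome 19 and 6 each on chromosomes 5 and 11. Shares of all genes on these chromosomes were not computed, and whether the members cluster was not tested.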
